A study of Mus musculus with 10 samples.

Results

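The ATP-binding cassette (ABC) transporter family was taken as every gene symbol of the deposited transcription table made of Abc, a subfamily letter from a to g, a number and at most 1 further letter. This rule found 50 of 24016 gene symbols, and none of the measured values entered the choice. The members were 16 genes of subfamily A, 10 of B, 10 of C, 4 of D, 1 of E, 3 of F and 6 of G. Of these, 25 had at least 0.5 RPKM (reads per kilobase of transcript, scaled to library size) in at least 2 libraries and were tested, and the other 25 stayed below that limit. Of the 25, 4 passed it through the ENRI libraries alone, among them Abcc5, Abcc6 and Abcg2.

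The study grew organoids from mouse duodenum in Matrigel and compared 2 media, and strain, sex and age are not given in the labels. Both media held EGF, Noggin and R-spondin. WENRC, called a stem cell medium in the labels, also held Wnt3A and CHIR-99021, a GSK3 inhibitor that activates Wnt signalling. ENRI, called an enterocyte differentiation medium, lacked both and held IWP-2, an inhibitor of Wnt secretion. Nascent RNA, labelled while polymerases already on the genes ran on in isolated nuclei, was sequenced (global run-on sequencing, GRO-seq) in 2 libraries per medium. The titles number 2 mice, but the columns give only a batch number, so a library is named here by medium and batch, and whether batch stands for mouse is not stated. The repressive histone mark H3K27me3, written by the Polycomb complex that the series title names, was profiled with 1 ChIP-seq library for each medium.

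ABC proteins bind and hydrolyse ATP in paired nucleotide-binding domains. In subfamilies A to D and G most of them couple this to moving lipids, sterols, bile salts, drugs, conjugates or peptides across a membrane, and those with a single set of domains must pair to work. Subfamilies E and F lack membrane-spanning domains and act on ribosomes and translation. In the small intestine the best known members sit in the brush border of enterocytes, where they return sterols, drugs and conjugated toxins to the lumen.

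In batch 1 the longest transcripts held 16302292 reads for WENRC and 18368185 for ENRI. In batch 2 they held 5868922 for WENRC, the shallowest library, and 10245627 for ENRI. The media differed in cell type markers in the direction of their names. Summed over 10 enterocyte markers, the level was 47.8 and 22.5 RPKM in WENRC (batches 1 and 2) and 568 and 812 RPKM in ENRI. Of these markers, 8 of 10 were called higher in ENRI in the authors' deposited table. Summed over 6 stem cell markers, the level was 22.9 and 33.6 RPKM in WENRC and 6.58 and 3.38 RPKM in ENRI, and 5 of 6 were called lower in the authors' deposited table. Goblet cell markers moved with the media too. Summed over 6 of them, the level was 7.88 and 5.14 RPKM in WENRC, against 44.8 and 28.5 RPKM in ENRI. Of the 6, 4 were called higher and 1 lower in the authors' deposited table. Over all genes the shares called were 5.65% higher and 3.06% lower. Markers of Paneth cells summed to 9.99 to 23.2 RPKM and overlapped between media. Endothelial markers summed to 0.0251 to 0.0647 RPKM and mesenchymal markers to 0.815 to 1.49 RPKM. Summed over 4 immune markers, the level was 13.3 and 17.0 RPKM in WENRC and 5.33 and 5.55 RPKM in ENRI. Nearly all of it was Cd68, the 1 called lower in the authors' deposited table, and 1 other was called higher. No marker was at 0 in all libraries. These marker levels move with every difference between media given here, and their part in it was not tested. In such bulk libraries fewer cells of a type and less RNA per cell cannot be told apart.

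The promoters of 6 members are printed because the results turn on them. Abcg5 and Abcg8 had the largest differences on the log2(RPKM + 0.5) scale, and Abcg5 and a shorter Abcg8 transcript start from a shared stretch. The printed Abcg8 window is that of the shorter transcript, while the Abcg8 difference is from the longest one, which starts upstream. Abcc2 was the most transcribed member, Abcb1a and Abcb1b are close paralogs at unlike levels, and Abcc9 was marked by H3K27me3 in both media. Each window runs from 250 bases before to 50 bases after a RefSeq start in build GRCm38.p6, a later build than the mm9 of the deposited files, and CG dinucleotides are in capitals. The windows are chr17:84682962-84683261 (minus strand) for Abcg5, chr17:84682871-84683170 (plus) for Abcg8, chr19:43782058-43782357 (plus) for Abcc2, chr5:8566841-8567140 (plus) for Abcb1a, chr5:8797897-8798196 (plus) for Abcb1b and chr6:142702225-142702524 (minus) for Abcc9.
Abcg5: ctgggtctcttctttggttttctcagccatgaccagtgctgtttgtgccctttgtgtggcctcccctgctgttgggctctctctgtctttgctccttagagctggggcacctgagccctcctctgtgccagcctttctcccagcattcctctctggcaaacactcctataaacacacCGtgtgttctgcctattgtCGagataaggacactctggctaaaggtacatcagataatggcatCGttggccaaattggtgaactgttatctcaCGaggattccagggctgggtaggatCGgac
Abcg8: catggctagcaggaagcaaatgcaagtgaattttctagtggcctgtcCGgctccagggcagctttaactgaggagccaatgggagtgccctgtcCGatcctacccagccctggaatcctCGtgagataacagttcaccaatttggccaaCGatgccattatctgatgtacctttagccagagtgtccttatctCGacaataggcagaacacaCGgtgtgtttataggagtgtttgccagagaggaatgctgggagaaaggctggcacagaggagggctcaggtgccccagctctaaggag
Abcc2: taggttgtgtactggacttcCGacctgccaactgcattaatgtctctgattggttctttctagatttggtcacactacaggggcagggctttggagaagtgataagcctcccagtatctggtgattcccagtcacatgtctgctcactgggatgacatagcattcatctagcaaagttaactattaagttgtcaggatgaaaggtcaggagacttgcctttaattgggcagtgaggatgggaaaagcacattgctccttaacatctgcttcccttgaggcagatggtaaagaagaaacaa
Abcb1a: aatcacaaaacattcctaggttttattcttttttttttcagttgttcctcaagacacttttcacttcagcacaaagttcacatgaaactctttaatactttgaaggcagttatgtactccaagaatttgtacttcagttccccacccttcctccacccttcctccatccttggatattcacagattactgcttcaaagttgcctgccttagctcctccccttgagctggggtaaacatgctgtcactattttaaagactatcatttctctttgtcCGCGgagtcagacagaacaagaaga
Abcb1b: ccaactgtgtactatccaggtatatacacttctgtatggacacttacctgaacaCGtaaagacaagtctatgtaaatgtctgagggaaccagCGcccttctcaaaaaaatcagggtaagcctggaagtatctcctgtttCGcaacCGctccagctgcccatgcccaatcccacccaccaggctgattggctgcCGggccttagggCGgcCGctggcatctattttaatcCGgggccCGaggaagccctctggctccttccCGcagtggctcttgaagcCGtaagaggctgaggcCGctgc
Abcc9: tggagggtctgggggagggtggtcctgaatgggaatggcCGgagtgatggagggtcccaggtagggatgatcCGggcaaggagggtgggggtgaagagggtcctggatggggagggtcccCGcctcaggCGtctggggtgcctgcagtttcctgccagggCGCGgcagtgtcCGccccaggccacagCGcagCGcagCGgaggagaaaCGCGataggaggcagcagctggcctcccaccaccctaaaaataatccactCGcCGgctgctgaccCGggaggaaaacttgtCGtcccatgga

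The Abcg5 and Abcg8 windows share 209 bases, read from opposite strands, so the end of one is the reverse complement of the end of the other. Each holds 3 matches to AGATAA, the core of GATA factor motifs (either strand), which 11.2% of all 32851 mouse RefSeq windows of this length hold at least once. Each also holds 1 match to TATAAA, held by 13.6% of all windows. All these matches lie in the shared bases, so the Abcg5 and Abcg8 windows hold the same sites, not separate ones. No other motif searched matched either window: the GC box GGGCGG (35.7% of all windows), the antioxidant element TGACNNNGC (12.4%), the TCF motif CTTTGAT (3.73%), the HNF4-type motif CAAAGTCCA (0.475%), or repeats of AGGTCA spaced by 1 base (0.0396%) or 4 bases (0.0152%). A match is a description of the letters in the window, and both strands were read.

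The Abcc2 window has 1 CG dinucleotide and the Abcb1a window 2, whereas that of the neighbouring paralog Abcb1b has 12 and that of Abcc9 has 16. The 2 paralog windows are not alike in place. The Abcb1b window spans 8798147, the mm9 start of the transcript measured. The Abcb1a window ends at 8567140, upstream of 8660092, the mm9 start of its measured transcript, so it belongs to another start. The Abcg5 window holds 5 CG dinucleotides and the printed Abcg8 window 6, while a second Abcg8 window, at the upstream start of the longest transcript, holds 21. Over 45 windows found for 38 members the median was 16, against 7 over all windows. Abcc2 and Abcb1a hold 1 antioxidant element each and Abcb1b and Abcc9 hold 1 GC box each.

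Across the family, 11 of 50 members (22%) were called higher in ENRI in the authors' deposited table at a false discovery rate (FDR) of 0.05, where 5.65% of all genes were. None was called lower in the authors' deposited table (edgeR), where 3.06% of all genes were and 3 members had an unadjusted p under 0.05. They included Abca8b, Abca14, Abcb9, Abcc2, Abcc5, Abcc6, Abcd3, Abcg2, Abcg5 and Abcg8, and each of the 11 was higher in ENRI in both batches with no overlap between media. In all, both ENRI libraries lay above both WENRC libraries for 17 members (34%, against 15.1% of all genes), and below them for 7 members (14%, against 33.4% of all genes). The remaining 26 members overlapped between media.

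No member passed a Benjamini-Hochberg adjusted p of 0.05 in the limma fit of all 11602 tested genes on log2(RPKM + 0.5), which called 17 genes in all (0.147%). The smallest adjusted p of a member in limma was 0.0560, for Abcg2. At an unadjusted limma p under 0.05 there were 11 members, 9 higher and 2 lower in ENRI, among 4521 genes (39.0% of those tested). The 9 include Abcc6 and Abcg2, which passed the limit on level through the ENRI libraries alone and so had to be higher. With edgeR 2 members were called, both higher, where 5.6% of genes were called higher and 2.84% lower. With batch as a block edgeR called 3 members, all higher and Abcb9 and Abcg2 among them, where 5.32% of genes were called higher and 2.72% lower. With DESeq2 11 members were called. The DESeq2 calls were all higher, where 14.7% of genes were called higher and 8.89% lower. They were the 9 tested members of the authors' list with Abca7 and Abcb1a.

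A single library decides the limma count. Without ENRI batch 1 it called 14 members, 10 higher (among them Abca7, Abcb1a, Abcb9, Abcc2, Abcc6, Abcd3, Abcg2, Abcg5 and Abcg8) and 4 lower (Abcc1, Abcc4, Abce1, Abcf2). That fit called 15.6% of all tested genes higher and 34.3% lower. Without ENRI batch 2 it called Abcc5 and Abcg2, both higher, where 2.58% of genes were called higher and 3.33% lower. In those fits the lone ENRI library is assumed to vary like the WENRC pair.

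The median log2 difference (ENRI minus WENRC) over the 25 tested members was 0.20, against −0.21 over all tested genes, of which 65.7% were lower in ENRI. Members were above 0 in 15 cases and below 0 in 10. The 15 include the 4 members that passed the limit through the ENRI libraries alone, which had to be higher there in both batches. Within batches the member medians were 0.28 and 0.18 and those of all genes −0.16 and −0.24. Of the 25, 14 were higher in ENRI in both batches, 7 were lower in both, and 4 went opposite ways, among them Abcb10, Abcc3 and Abcc4.

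**Figure D1:**
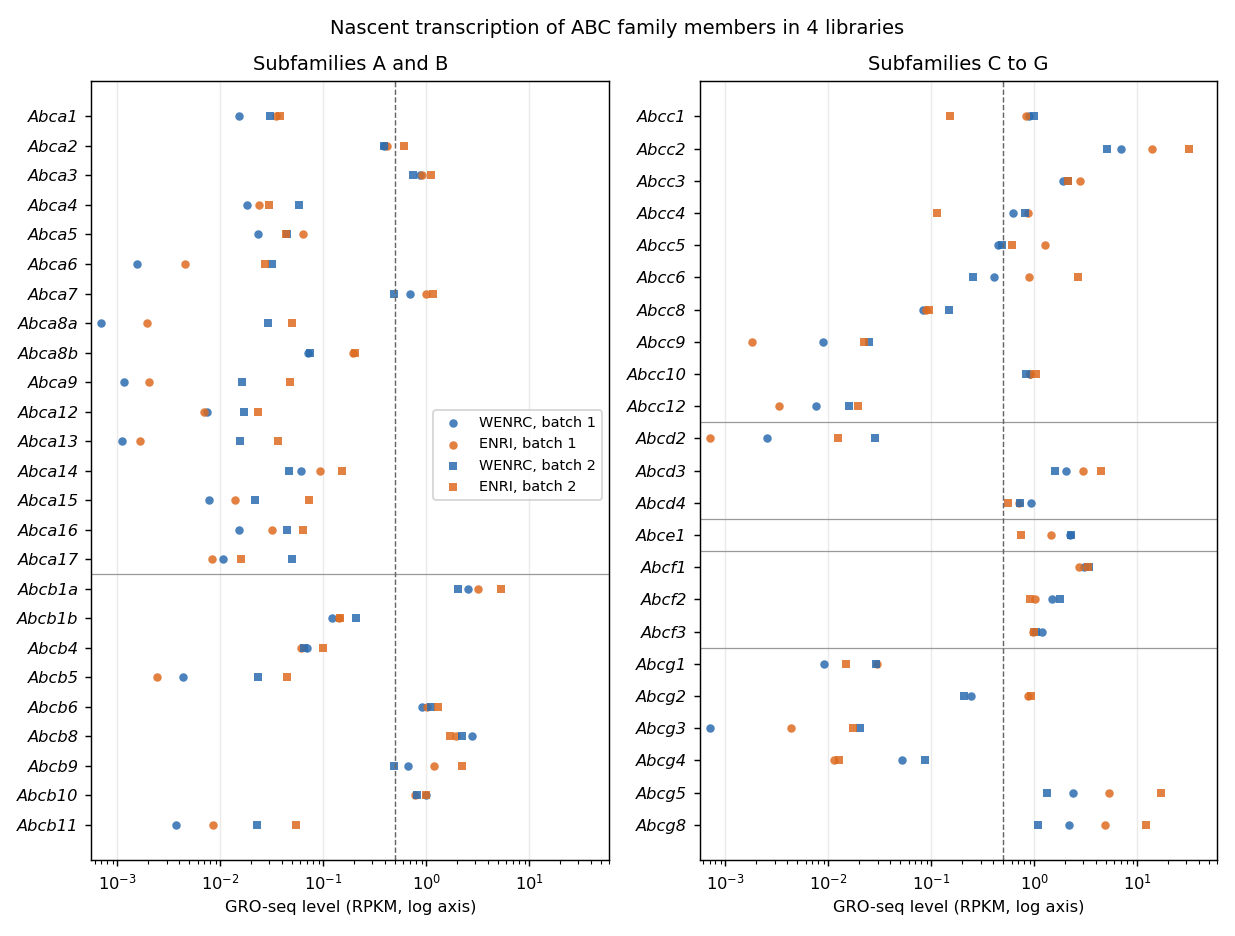
GRO-seq level in RPKM (log axis) of 48 of the 50 members in 4 libraries, by subfamily; circles are batch 1, squares batch 2, blue WENRC and orange ENRI, the dashed line is the limit of 0.5 RPKM, and libraries with 0 reads are drawn at the left edge. Abcc2, Abcg5 and Abcg8 reach the highest levels, all in ENRI, and most of subfamily A lies far below the limit.

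The sterol exporters Abcg5 and Abcg8 had the largest log2 differences of the tested members on the log2(RPKM + 0.5) scale. Their proteins pair to return cholesterol and plant sterols from enterocytes to the lumen. Abcg5 (chr17:85057574-85082263 in mm9, minus strand) was at 2.38 and 1.32 RPKM in WENRC (batches 1 and 2) and 5.37 and 17.1 RPKM in ENRI. Abcg8 (chr17:85075642-85099673, plus strand) was at 2.17 and 1.08 RPKM in WENRC and 4.86 and 12.2 RPKM in ENRI. For both genes the media did not overlap, ENRI batch 2 was far above ENRI batch 1, and WENRC batch 2 was the lowest library. In limma the log2 differences were 2.15 ± 0.61 (SE, adjusted p = 0.0848) for Abcg5 and 2.00 ± 0.52 (SE, adjusted p = 0.0755) for Abcg8. In the authors' deposited table they were 2.67 (FDR 0.000653) and 2.56 (FDR 0.000496).

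The pair cannot be read as wholly separate measurements. The longest Abcg8 transcript overlaps Abcg5 by 6621 bp on the opposite strand, 26.8% of Abcg5, and the strand setting of the authors' counting is not stated, so reads there cannot be told apart. A shorter Abcg8 transcript starts 198 bp from the Abcg5 start in the deposited annotation, outside the body of Abcg5. It was at 2.12 and 1.01 RPKM in WENRC and 4.56 and 10.5 RPKM in ENRI, so the difference between media is present without the overlap.

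The other G members divided into 1 tested gene and 3 near silence. Abcg2 (chr6:58546666-58642445, plus strand), the brush border exporter of drugs and of urate also known as breast cancer resistance protein, was at 0.244 and 0.206 RPKM in WENRC and 0.861 and 0.927 RPKM in ENRI. Its limma SE was the smallest of the 9 tested members called in the authors' deposited table, with a log2 difference of 0.94 ± 0.13 (SE) and batch differences of 0.87 and 1.02. In the authors' deposited table its log2 difference was 2.24 (FDR 2.889e-06), the smallest FDR of the family. Adding 0.5 RPKM in the limma scale understates the change of genes that lie below 0.5 RPKM. It also narrows their spread between libraries, so the small SE of Abcg2 cannot be set directly against those of higher genes. Abcg2 passed the limit of 0.5 RPKM through the ENRI libraries alone, so among tested genes it had to be higher there.

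Abcg1 and Abca1, which load cellular cholesterol onto lipoproteins, were barely transcribed. Abcg1 was between 0.00899 and 0.0296 RPKM and Abca1 between 0.0153 and 0.0383 RPKM over the 4 libraries. Neither gene passed the limit in any library.

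Among exporters of drugs and conjugates, Abcc2 had the highest level of the family. Abcc2 (chr19:43856798-43912708, plus strand), the brush border exporter of glutathione and glucuronide conjugates, was at 6.92 and 5.02 RPKM in WENRC and 14.0 and 32.0 RPKM in ENRI. The media did not overlap, and ENRI batch 2 was again the highest library. Its log2 difference was 1.76 ± 0.47 (SE, adjusted p = 0.0796) in limma and 2.09 (FDR 0.00710) in the authors' deposited table.

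Abcb1a (chr5:8660092-8748570, plus strand) encodes P-glycoprotein, the brush border efflux pump for many drugs. It was at 2.55 and 2.03 RPKM in WENRC and 3.19 and 5.30 RPKM in ENRI. The media did not overlap, but the gap rested mainly on batch 2, and neither limma (log2 0.74 ± 0.28 SE, adjusted p = 0.133) nor the authors' deposited table (log2 1.10, FDR 0.132) called it. Abcb1b, the second mouse P-glycoprotein gene, was at 0.122 and 0.206 RPKM in WENRC and 0.142 and 0.145 RPKM in ENRI, and overlapped between media. The a and b genes are near copies in sequence, and how the authors treated reads that match both is not stated.

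Of the C members that export organic anions through other membranes, Abcc6 and Abcc5 were called in the authors' deposited table. Abcc6 (chr7:53231750-53285656, minus strand), whose loss causes the mineralisation disease pseudoxanthoma elasticum, was at 0.403 and 0.253 RPKM in WENRC and 0.879 and 2.67 RPKM in ENRI. Its log2 difference was 1.34 ± 0.43 (SE, adjusted p = 0.101) in limma and 2.49 (FDR 0.000497) in the authors' deposited table. Abcc6 passed the limit of 0.5 RPKM through the ENRI libraries alone, so the lack of overlap between media was fixed by the filter.

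Abcc5, an exporter of organic anions such as cyclic nucleotides, showed the reverse order of batches. It was at 0.440 and 0.480 RPKM in WENRC and 1.27 and 0.605 RPKM in ENRI, so ENRI batch 1 was the high library. Its log2 difference was 0.54 ± 0.26 (SE, adjusted p = 0.191) in limma and 1.18 (FDR 0.0458) in the authors' deposited table. Abcc5 also passed the limit through the ENRI libraries alone, so among tested genes it had to be higher there.

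Abcc1 and Abcc4 had 1 low library each. Abcc1, an exporter of glutathione conjugates, was at 0.891 and 0.991 RPKM in WENRC and 0.831 and 0.153 RPKM in ENRI. Abcc4, an exporter of cyclic nucleotides and prostaglandins, was at 0.625 and 0.803 RPKM in WENRC and 0.871 and 0.112 RPKM in ENRI. In both, ENRI batch 2 was several times below the other 3 libraries, while ENRI batch 1 was near WENRC for Abcc1 and above it for Abcc4. Neither was called (limma log2 −0.63 ± 0.37 SE, adjusted p = 0.265, and −0.40 ± 0.42 SE, adjusted p = 0.505). Without ENRI batch 2 the Abcc4 difference was 0.18.

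Abcc3, which exports glucuronides and bile acids across the basolateral membrane, was at 1.90 and 2.13 RPKM in WENRC and 2.80 and 2.12 RPKM in ENRI, and overlapped between media. Abcc10, another organic anion exporter, was between 0.838 and 1.04 RPKM, with both ENRI libraries above both WENRC libraries by a small margin. Neither passed a test in limma (log2 0.23 ± 0.18 SE and 0.11 ± 0.12 SE).

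**Figure D2:**
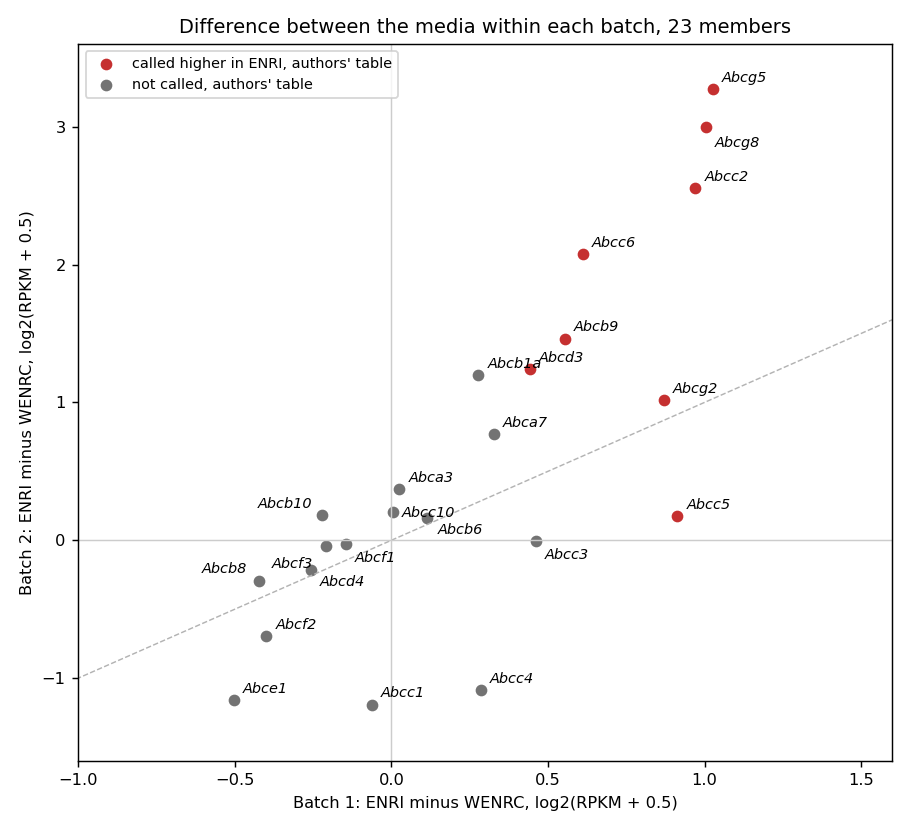
Log2(RPKM + 0.5) difference, ENRI minus WENRC, in batch 1 (horizontal) and batch 2 (vertical) for 23 of the 25 tested members; red points were called higher in the authors' deposited table and the dashed line marks equal differences. Abcg5, Abcg8 and Abcc2 sit highest with larger differences in batch 2 than in batch 1, Abcg2 lies near the line, and Abcc1, Abce1 and Abcc4 sit lowest.

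Subfamily D acts at peroxisomes, except Abcd4. Abcd3 (chr3:121461828-121518133, minus strand), which takes in branched fatty acids and bile acid precursors, was at 2.04 and 1.58 RPKM in WENRC and 2.96 and 4.41 RPKM in ENRI. The media did not overlap, and ENRI batch 2 was the highest library. Its log2 difference was 0.84 ± 0.24 (SE, adjusted p = 0.0867) in limma and 1.25 (FDR 0.0445) in the authors' deposited table.

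Abcd2, a peroxisomal fatty acid transporter, was at most 0.0283 RPKM. Abcd4, which serves cobalamin release from lysosomes, was at 0.938 and 0.731 RPKM in WENRC and 0.703 and 0.560 RPKM in ENRI, lower in ENRI without overlap and not called (limma log2 −0.24 ± 0.15 SE, adjusted p = 0.292). With quantile normalization that difference was 0.010.

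Of 13 other genes of peroxisomal fatty acid oxidation and assembly, 8 were called higher in the authors' deposited table, against 5.65% of all genes. Limma called 0 of the 13, with 9 at an unadjusted p under 0.05 and a median log2 difference of 0.90. That unadjusted cutoff was met by 39.0% of all tested genes. Among the largest were Acaa1b (log2 2.24) and Acaa1a (1.85) on the limma scale, which encode 2 thiolases of near identical sequence.

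The other 5 tested members of subfamily B work inside the cell, and 1 was called. Abcb9 (chr5:124511866-124545807, minus strand), which carries peptides into lysosomes, was at 0.659 and 0.484 RPKM in WENRC and 1.20 and 2.21 RPKM in ENRI. The media did not overlap, and the log2 difference was 1.01 ± 0.27 (SE, adjusted p = 0.0776) in limma and 1.76 (FDR 0.00437) in the authors' deposited table.

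Mitochondrial Abcb8 and Abcb10 and the porphyrin-linked Abcb6 stayed within narrow ranges. Abcb8 was at 2.75 and 2.21 RPKM in WENRC and 1.93 and 1.71 RPKM in ENRI, with no overlap between media, and it did not pass limma (log2 −0.36 ± 0.16 SE, adjusted p = 0.178). Abcb6 was between 0.909 and 1.29 RPKM and Abcb10 between 0.776 and 0.996 RPKM, both overlapping between media. In a list of 13 genes for iron-sulfur clusters and heme, the median limma log2 difference was −0.26. Of the 13, 1 was called higher in the authors' deposited table, against 5.65% of all genes. It was the mitochondrial iron importer Slc25a37.

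The non-transport subfamilies E and F were lower in ENRI or level. Abce1 (chr8:82207341-82235639, minus strand), which splits ribosomes after termination, was at 2.24 and 2.26 RPKM in WENRC and 1.44 and 0.734 RPKM in ENRI. Abcf2, a ribosome-associated member, was at 1.50 and 1.78 RPKM in WENRC and 1.01 and 0.909 RPKM in ENRI. The WENRC libraries of Abce1 lay close together, and both genes had both WENRC libraries above both ENRI libraries. They are the 2 members lower in ENRI at an unadjusted p under 0.05 in limma, with log2 differences of −0.83 ± 0.25 (SE, adjusted p = 0.0915) and −0.55 ± 0.13 (SE, adjusted p = 0.0696).

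Abcf1, which takes part in translation initiation, was the most transcribed of subfamily F, at 3.06 and 3.40 RPKM in WENRC and 2.72 and 3.32 RPKM in ENRI, and it overlapped between media. Abcf3 was at 1.20 and 1.04 RPKM in WENRC and 0.967 and 0.994 RPKM in ENRI. Its media did not overlap, by a small margin, and its direction and those of Abcf1 and Abcb10 turn positive with median centring. Among 10 ribosome and translation factors that work beside subfamilies E and F, 7 had both ENRI libraries below both WENRC libraries, against 33.4% of all genes. Of the 10, 1 was called higher in the authors' deposited table, against 5.65% of all genes.

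Subfamily A was the largest and the least transcribed. Of its 16 members only Abca3 and Abca7 were tested. Abca7, a phospholipid transporter, was at 0.698 and 0.482 RPKM in WENRC and 1.00 and 1.17 RPKM in ENRI, without overlap and with a limma log2 difference of 0.55 ± 0.16 (SE, adjusted p = 0.0859). Abca3, which loads surfactant lipids into lamellar bodies in lung, was at 0.875 and 0.736 RPKM in WENRC and 0.899 and 1.10 RPKM in ENRI (log2 0.20 ± 0.14 SE, adjusted p = 0.331).

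Below the limit of 0.5 RPKM, 2 subfamily A members were called higher in the authors' deposited table. Abca8b (log2 1.68, FDR 0.00679), a lipid transporter, was at 0.0707 and 0.0745 RPKM in WENRC and 0.194 and 0.201 RPKM in ENRI. Abca14 (log2 1.39, FDR 0.0457) was at 0.0612 and 0.0463 RPKM in WENRC and 0.0939 and 0.152 RPKM in ENRI. The media did not overlap for either gene, and the replicates of Abca8b lay close together in each medium.

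The other 23 members below the limit included the bile exporters Abcb4 and Abcb11, the retinal Abca4, the skin lipid transporter Abca12 and the potassium channel regulators Abcc8 and Abcc9. In all 4 libraries 20 members were under 0.1 RPKM. The highest single value below the limit was 0.603 RPKM, for Abca2 in ENRI batch 2, and Abca8a, Abcd2 and Abcg3 had 0 reads in at least 1 library. Of the 25 members below the limit, 17 had both batch 2 libraries above both batch 1 libraries whatever the medium, as did 30.8% of all genes below it. Batch 2 had fewer reads in both media.

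H3K27me3 was read as a broad region, called by the authors in each library against input, that touched 2 kb either side of the start of the longest transcript. In WENRC it marked 9 of 50 members (18%, exact 95% interval 8.58% to 31.4%), against 10.5% of all genes. In ENRI it marked 5 of 50 (10%, interval 3.33% to 21.8%), against 8.76% of all genes. With 1 ChIP library per medium there is no replicate and no test, and both intervals, which treat genes as independent, hold the share of all genes.

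The marked members had low levels. In the broad lists, in both media these were Abcc9, Abcg1 and Abcg4, in WENRC alone Abca1, Abca3, Abca5, Abcb4, Abcc8 and Abcd2, and in ENRI alone Abca8b and Abcb11. Of these 11 only Abca3 passed the limit on level, and no library exceeded 0.201 RPKM for any of the others. The median of mean levels was 0.0404 RPKM over the 11 marked members and 0.716 RPKM over the 39 unmarked ones, of which 24 were tested. Low levels occurred without the mark too, since 15 unmarked members were below the limit. The split by medium held only in part with narrow peaks. Abca1, Abcb4 and Abcc8 were then marked in ENRI as well and Abcb11 in WENRC as well. Abca3 and Abcd2 stayed marked in WENRC alone and Abca8b in ENRI alone. Abca5 was not marked by narrow peaks, while Abca15 was marked in WENRC alone and Abca4 in ENRI alone.

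The widest regions lay over Abcg1 and Abcg4. At Abcg1 the region was chr17:31194216-31198610 in WENRC (5.78-fold over input) and chr17:31193719-31200851 in ENRI (6.19-fold), in the authors' deposited lists. At Abcg4, a brain sterol transporter, it was chr9:44093936-44097473 in WENRC (7.24-fold) and chr9:44094801-44096986 in ENRI (4.79-fold). Abcg4 was at 0.0514 and 0.0862 RPKM in WENRC and 0.0114 and 0.0126 RPKM in ENRI, the largest log2 difference downward of the family in the authors' deposited table (−2.17, FDR 0.0887, not called), and it was marked in both media.

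Abcc9 and Abcc8 are the sulfonylurea receptors that regulate ATP-sensitive potassium channels. At Abcc9, whose promoter is printed above, the region was chr6:142650438-142651438 in WENRC (4.42-fold) and chr6:142649169-142650992 in ENRI (4.66-fold). At Abcc8 the region chr7:53435370-53437237 was in the WENRC list alone among broad regions (4.84-fold), while both media had a narrow peak near its start. Both genes and their channel partners Kcnj8 and Kcnj11 stayed below the limit, and neither partner was called in the authors' deposited table.

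The 6 members marked by broad regions in WENRC alone held no call in the authors' deposited table. That table called 5.65% of all genes higher and 3.06% lower. Abca8b, marked in ENRI alone (chr11:109854972-109855972, 5.16-fold), was called higher in ENRI there. None of the other 10 members called higher had a region within 2 kb in either medium. Most genes have none, since 10.5% of all genes were marked in WENRC and 8.76% in ENRI. Over both media the nearest broad region was 85865 bp from the Abcg5 start, 152700 bp from that of Abcc2 and 1763524 bp from Abcg2.

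**Figure D3:**
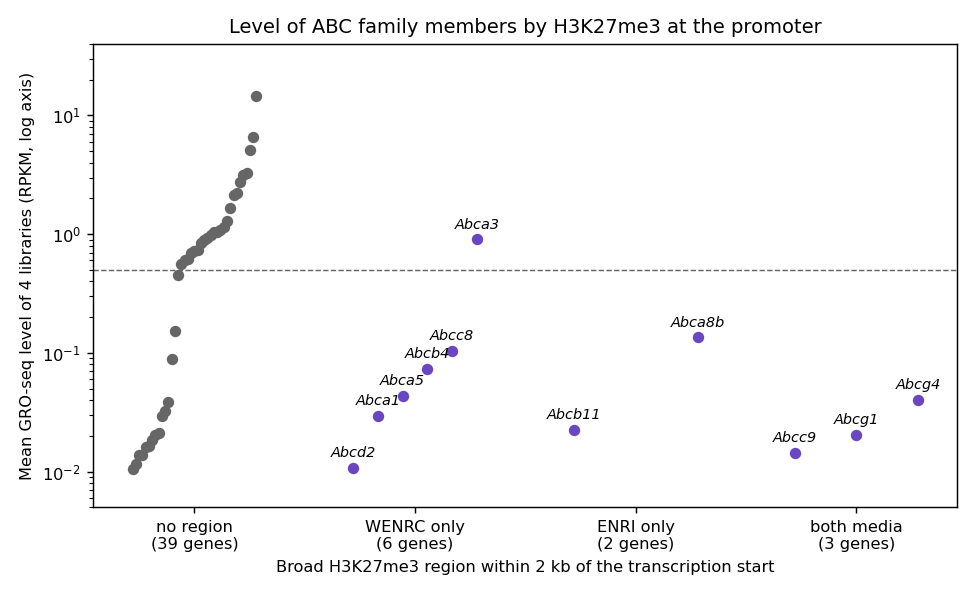
Mean GRO-seq level over 4 libraries (RPKM, log axis) of each member, grouped by the medium in which a broad H3K27me3 region touched 2 kb either side of its start; the dashed line is 0.5 RPKM. Of the 11 marked members only Abca3 lies above the line, and the 39 unmarked members spread over the whole range.

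Other genes around the transporters were read from lists. Of 18 transcription factors known to act on ABC genes, 3 were called higher in the authors' deposited table, against 5.65% of all genes. They were Nr1h4, the bile acid receptor, Rxra, its partner, and Ppara, a fatty acid sensor. Limma called 0 of the 18, with 8 at an unadjusted p under 0.05, a cutoff that 39.0% of all tested genes met. Ppara was at 0.375 ± 0.0847 RPKM in WENRC, against 2.48 ± 1.40 RPKM in ENRI (SD, n = 2 each, limma log2 1.69 ± 0.36 SE, adjusted p = 0.0623). It passed the limit of 0.5 RPKM through the ENRI libraries alone, so it had to differ. Vdr, the vitamin D receptor, and Nfe2l2, the oxidative stress factor, were at log2 1.08 and 1.03 and were not called. The liver X receptor genes Nr1h2 and Nr1h3, known activators of sterol exporter genes, were at log2 0.83 and 0.48 without overlap between media and were not called.

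Enzymes and glutathione synthesis genes that supply the conjugates exported by subfamily C were also read. Of 19 such genes, 12 were called higher in the authors' deposited table, against 5.65% of all genes, and 0 were called in limma. At an unadjusted limma p under 0.05 there were 11, where 39.0% of all tested genes were, and the median limma log2 difference was 1.26. The largest were the glutathione transferases Gsta1 (2.95) and Gstm1 (2.13) and the sulfotransferase Sult1d1 (1.84). Glutathione transferases of 1 class have near copies, and the Ugt1a genes share exons, so their counts are not independent.

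Of 15 genes of sterol uptake, esterification and lipoproteins, 7 were called higher and 1 lower in the authors' deposited table. Over all genes those shares were 5.65% and 3.06%. The median limma log2 difference of the list was 0.49. The apolipoproteins Apoa1 (5.95), Apoa4 (5.36) and Apob (2.71) led, of which Apoa1 and Apoa4 are also in the enterocyte marker list. Npc1l1, which takes up the sterols that Abcg5 and Abcg8 export, was higher (1.19), called in the authors' deposited table and not in limma (adjusted p = 0.127). Soat1, which esterifies cholesterol in many cells, was the gene called lower (limma −1.22, adjusted p = 0.0560), while Soat2, the form of the same enzyme best known from enterocytes, overlapped between media.

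Of 9 bile acid genes found, 3 were called higher in the authors' deposited table, against 5.65% of all genes. Among the 3 were both subunits of the basolateral bile acid exporter, Slc51b (limma log2 1.86) and Slc51a (1.55). Slc51b passed the limit through the ENRI libraries alone. The ABC proteins whose symbols fall outside the rule had 0 calls in either direction in the authors' deposited table and in limma. At an unadjusted limma p under 0.05 there was 1, where 39.0% of all tested genes were. Cftr, the chloride channel of the family, had a mean of 2.45 ± 0.149 RPKM in WENRC, against 1.45 ± 0.518 RPKM in ENRI (SD, n = 2 each, limma log2 −0.62, adjusted p = 0.126). The peptide transporter subunit Tap1 was at 0.556 ± 0.0115 and 0.750 ± 0.0235 RPKM.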

How the data were processed

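GRO-seq was analysed in 4 libraries and H3K27me3 ChIP-seq in 2, all grouped by title. Per the submitters' processing notes, FastQC, Bowtie, Bowtie2, HOMER 4.3 and edgeR were used with build mm9. Gene body signal was deposited by the authors as reads scaled to the same total in every column, with log2 fold changes, p-values and FDR from edgeR, per the file headers. All low values were whole multiples of 1 read within a tolerance of 0.1, so the deposited signal gave back read counts. The deposited H3K27me3 regions, with their score and fold over input as a ratio, were called by the authors in each library against input, per the file headers. 4 further columns of per-sample values (the authors' own RPKM), the input and the H3 libraries were not used here.

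RPKM was computed from the signal of the longest transcript of each symbol. The limit of 0.5 RPKM in 2 libraries or more chose the genes for limma 3.58.1 (R 4.3.3) on log2(RPKM + 0.5), with Benjamini-Hochberg adjustment at 0.05. edgeR 4.0.16 (quasi-likelihood) and DESeq2 1.42.0 on recovered reads, other pseudocounts, filters, scalings, a batch block, promoter widths, peak lists and each library left out were alternatives. The fits were tested on simulated data. With 2 libraries per medium, p-values measure the spread between these libraries, which may be technical. The intervals cover counting error only.

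Named members were those called by limma or the authors' deposited table and the most transcribed of a subfamily; others are given by range, or were named after their values were seen. From each list up to 3 tested genes with the largest change were named, and Npc1l1, Soat1, Soat2, Nr1h2, Nr1h3 and Abcb1b were added after their values were seen. The members, gene lists and motifs were chosen with earlier results of these data known. Some genes of the family and lists enter the counts and are not reported here by name.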

Additional observations from a re-analysis of the deposited data

How the results depend on the processing

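No member passed limma in the fit without a block, and none did with pseudocounts of 0.1 or 1, no filter, median centring or the replicate block. With a filter of 10 reads or with quantile normalization 2 members passed, as with edgeR, against 3 with edgeR and the replicate block and 11 with DESeq2. Leaving out 1 library gave 0 to 14 members, the most without ENRI batch 1. Deviations of same-batch libraries correlated at 0.0126 over the 11602 tested genes. With only 2 batches this cannot decide whether libraries of a batch are paired. Among genes below the limit, 30.8% had both batch 2 libraries above both batch 1 libraries.

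The member median moved from 0.20 to 0.27 with a pseudocount of 0.1, 0.031 with no filter and 0.034 with the filter of 10 reads, where silent genes enter. It was 0.35 with median centring, 0.32 with quantile normalization, 0.53 with edgeR with or without the block and 0.56 with DESeq2. The median of all genes was −0.062, −0.042, −0.031, −0.048 (block) and −0.0030 in these 5, so the members stood 0.36 to 0.57 above it, against 0.41 without any of these changes, 0.046 with no filter and 0.13 with the filter of 10 reads. With median centring 20 of 50 members were higher in ENRI without overlap and 4 lower, against 17 and 7. With quantile normalization 16 of the 25 tested members were higher and 3 lower, against 13 and 6 among the same 25, a count chosen after seeing the data. The 13 include the 4 members that passed the limit through the ENRI libraries alone. The members marked in ENRI numbered 9 with narrow peaks (18%, against 19.6% of all genes). In the upper part of the score list they numbered 3 (6%, against 6.73% of all genes).

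Of 322 values of single named members over 14 settings, 19 changed sign, in 5 members, and the cause was not tested. Under median centring the log2 differences were 0.13 (Abcb10), 0.060 (Abcf1) and 0.020 (Abcf3). Under quantile normalization they were 0.19 (Abcb10), 0.010 (Abcd4) and 0.064 (Abcf3). With edgeR they were 0.22 (Abcb10), 0.15 (Abcf1) and 0.053 (Abcf3), and with the replicate block 0.21, 0.14 and 0.054. With DESeq2 they were 0.25, 0.19 and 0.083. Leaving out 1 library gave −0.13 to 0.095 for Abcb10, −0.21 to 0.037 for Abcf1 and −0.98 to 0.18 for Abcc4, positive in the last case only without ENRI batch 2. A test was newly passed 30 times, in 14 of them. The depth of WENRC batch 2 and 2 libraries per medium limit all of these values.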
